A study of Mus musculus with 19 samples.

Results

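Cell adhesion genes of the cadherin family were examined in neurons of the embryonic mouse retina: Cdh2, Cdh4, Cdh6, Cdh7, Cdh8, Cdh9, Cdh10, Cdh11, Cdh12 and Cdh13. The rule that picked these 10 genes used their names and no measured value, although the family was singled out with earlier results of these data known, and all 10 were found among the 47069 genes listed for each RNA-seq library. Retinal ganglion cells (RGCs) send the axons of the retina to the brain, and at the optic chiasm most of these axons cross the midline whereas those of a small ventrotemporal (VT) population turn back to the same side. The question of the comparison was which transcripts differ between the ipsilateral RGCs (iRGCs) and the contralateral RGCs (cRGCs). Both populations came from E16.5 retinas of embryos of a C57/DBA F1 background, males and females pooled, and the labels give the genotype as WT. According to the methods, however, the embryos carried Cre and reporter alleles. In the iRGC libraries (labelled Sert, n = 3), the ET33 Sert-Cre transgene, driven by the regulatory sequence of the serotonin transporter gene Slc6a4, switched on Sun1-GFP, a nuclear envelope protein fused to green fluorescent protein and inserted in the Rosa26 locus. In the cRGC libraries (labelled Brn3b, n = 3), the same reporter was switched on by Pou4f2-Cre, which was targeted into the Brn3b locus itself, and the VT region was dissected away before sorting. GFP-positive cells were sorted by flow cytometry, so each library averages over whatever cells carried the reporter, and how many embryos entered each RNA library is not given in the sources used here. The library codes in the labels start differently for the 2 populations. What this prefix marks is not given, so it cannot be told apart from the population. The libraries held between 28193178 and 33638083 reads on genes.

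Classical cadherins are calcium-dependent adhesion molecules. Their extracellular repeats bind cadherins on the neighbouring cell, mostly of the same kind, and their cytoplasmic tail binds catenins that link the junction to actin. The protein is made as a precursor, and furin-like proteases remove a propeptide to expose the adhesive end, where tryptophan side chains are exchanged between partners: a single tryptophan in type I cadherins and a pair of them in type II cadherins. Cdh13 is a relative that ends in a lipid (GPI) anchor and has no tail for catenins. In the retina, type II cadherins are known for marking and connecting particular sets of neurons, and Cdh2 for holding the neuroepithelium together.

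The type of each cadherin can be read from its gene. Shown are the 24 coding bases that follow the first furin site, 5′ to 3′ on the coding strand, from the GRCm38 reference, with every TGG codon (tryptophan) in capitals. They are shown because the members divide by these codons, whereas their transcripts, described further on, did not divide fully between the populations by them.
Cdh4: gacTGGgtcatcccacccatcaac
Cdh11: ggcTGGgtcTGGaaccaattcttt
Cdh8: ggcTGGgttTGGaatcaaatgttt
Cdh9: ggcTGGatgTGGaatcagttcttc
Cdh6: agtTGGatgTGGaatcagttcttc
Cdh10: ggcTGGatgTGGaatcagtttttc
Cdh12: ggcTGGgtaTGGaatcagtttttt
Cdh7: agcTGGgttTGGaatcagttcttc
Cdh13: tccattgtggtgtcccccatcttg
The type I member Cdh4 (chr2:179797560-179797583) has 1 such codon, at the second place after the site. All 7 type II members have 2, at the second and the fourth place, and Cdh13 (chr8:118757416-118757439) has none. The stretches of Cdh6 (chr15:13091695-13091718, minus strand), Cdh9 (chr15:16778257-16778280), Cdh10 (chr15:18899751-18899774) and Cdh12 (chr15:21237843-21237866) lie on the same chromosome. Those of Cdh8 (chr8:99400771-99400794, minus strand) and Cdh11 (chr8:102679657-102679680, minus strand) share another, and that of Cdh7 is at chr1:109994321-109994344. Each stretch lies within a single exon. After the last hydrophobic window of the translated sequence, the 9 members other than Cdh13 continue for 150 to 157 residues, the length left for the cytoplasmic tail, and Cdh13 for 2.

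The libraries differed in the summed levels of cell type markers, and this stands beside every result. Levels are given as CPM, that is, reads on a gene divided by the TMM-scaled library size and expressed per 1000000 reads. The summed level of 13 RGC markers was 3067, 4367 and 6364 CPM in iRGC replicates 1, 2 and 3 and 16151, 14770 and 18358 CPM in the cRGC replicates, and 12 of the 13 were called lower in iRGCs. Their most abundant gene was Tubb3, a neuronal tubulin. They include Pou4f1 and Sncg, which the paper reports as specific to cRGCs, so part of this list differs by population. Conversely, 14 markers of retinal progenitors, led by the cell cycle gene Ccnd1, summed to 10492, 9338 and 8277 CPM in iRGCs and 1757, 2990 and 2315 CPM in cRGCs, and 13 of the 14 were called higher. The iRGC libraries were thus poorer in the markers of the labelled cell type and richer in those of dividing cells. Of all genes tested, 23.3% were called higher and 23.1% lower. The progenitor list holds Lhx2, Sox2 and Sox9, which the paper reports as expressed in iRGCs. According to the paper, iRGCs are born later than cRGCs and were younger on average at this age. This age difference comes with the population and cannot be told apart from it. Markers of neurogenic precursors (led by Hes6), photoreceptor precursors (Neurod1), amacrine and horizontal cells (Onecut2), mural cells (Notch3) and the response to dissociation (Fos) were also higher in sum in every iRGC library than in any cRGC library.

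**Figure D1:**
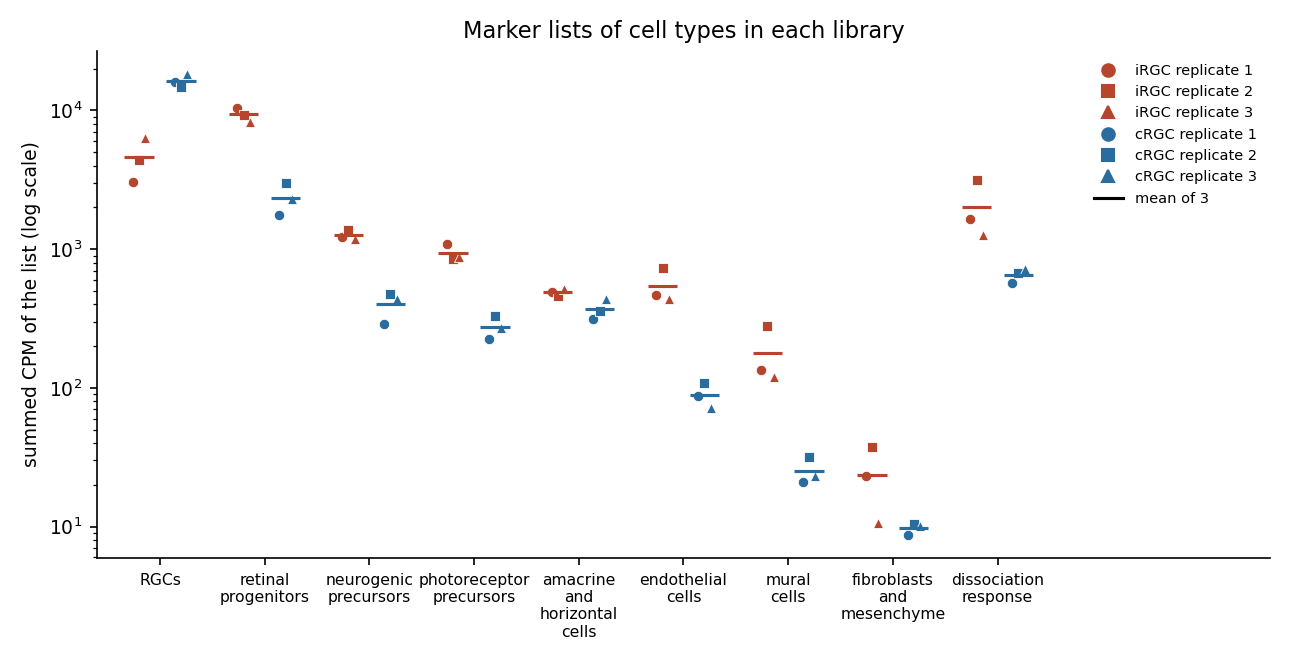
Summed level of each marker list (log axis, CPM) in each library, with iRGCs in red, cRGCs in blue, symbols for the replicates and a line at the mean of 3. RGC markers sit at 3067 to 6364 CPM in iRGCs and 14770 to 18358 CPM in cRGCs, and the progenitor list shows the opposite order.

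Among the endothelial markers, whose most abundant gene was Kdr, the list summed to 465, 732 and 434 CPM in iRGCs and 88.0, 108 and 71.9 CPM in cRGCs. Of the 12 genes listed, Cdh5, Tie1, Erg and Adgrf5 were at 0 in all cRGC libraries, and the others were not. Cdh5, the cadherin of endothelial junctions, had 474, 2630 and 5 reads in iRGC replicates 1, 2 and 3. Over the whole list, however, replicate 3 was nearly level with replicate 1, and replicate 2 stood apart from both. Kdr, at a mean of 226 CPM over the 6 libraries, made up most of this sum. Near-equal sums therefore do not show equal levels of the other endothelial markers. Because of the Cdh5 reads, the fit was repeated without Sert replicates 1 and 2. Of the fibroblast and mesenchyme list, led by Col1a2, Col3a1, Dcn, Lum, Foxc1, Twist1 and Prrx1 were likewise at 0 in cRGCs, and its sum was 23.0, 37.6 and 10.7 against 8.73, 10.4 and 10.2 CPM. The other lists were small in sum: pigment epithelium (most abundant gene Best1) stayed at or below 8.07 CPM, the optic stalk and astrocyte list (Pdgfra) at or below 16.3 CPM and lens (Cryaa) at or below 11.2 CPM. Microglial transcripts (Csf1r) summed to 13.1, 21.3 and 16.3 CPM in iRGCs and 0.654, 4.31 and 1.58 CPM in cRGCs, and erythroid transcripts (Hbb-bs) to 12.2, 92.7 and 15.2 CPM against 0, 5.11 and 0.290 CPM, so both lists were higher in every iRGC library. The genes that mark the iRGCs themselves did not all follow the labels: of 4, Zic2 and Zic1 were called higher, and Slc6a4 (adjusted p = 0.768) and Ephb1 (0.499) were not called. Zic2, the transcription factor that drives the ipsilateral turn, was at 133, 173 and 157 CPM in iRGCs against 57.01, 60.2 and 65.7 CPM in cRGCs. Slc6a4, whose regulatory sequence drove the Cre, was at 2.06, 33.4 and 116 CPM in iRGC replicates 1, 2 and 3 and at 48.1, 35.4 and 30.5 CPM in cRGCs. The library labelled Sert replicate 1 was therefore below every cRGC library for this gene. The counts of the members and of the pathway genes together are also given below without that library. Since these are bulk samples, fewer cells of a type and less RNA per cell cannot be told apart.

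All 10 cadherins passed the filter on low counts, and all 10 differed between the populations: 4 were higher in iRGCs (Cdh2, Cdh4, Cdh9 and Cdh11) and 6 were lower (Cdh6, Cdh7, Cdh8, Cdh10, Cdh12 and Cdh13). The test was edgeR's quasi-likelihood test across 15941 genes, with a Benjamini-Hochberg adjusted p under 0.1 as the threshold. Of all genes tested, 46.4% were called in either direction, 23.3% as higher and 23.1% as lower, so a call by itself was common. A log2 fold change above 1 was seen for 1 of the higher members (background 12.1%) and below -1 for 4 of the lower members (background 11.0%). For all 10, the 3 iRGC libraries did not overlap the 3 cRGC libraries, as was the case for 55.3% of all genes tested. The median log2 fold change of the members was -0.89, and that of all genes tested was -0.003. Without Sert replicate 1 the counts were again 4 higher and 6 lower, beside 3521 and 3575 of the 16752 genes tested in that fit. Without Sert replicates 1 and 2, Cdh8 and Cdh9 lost their call, and fewer of all genes tested were called. Tryptophan type did not fully separate the directions: the type I members were both higher, 5 of the 7 type II members were lower and 2 were higher. Whether type and direction went together was not tested.

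**Figure D2:**
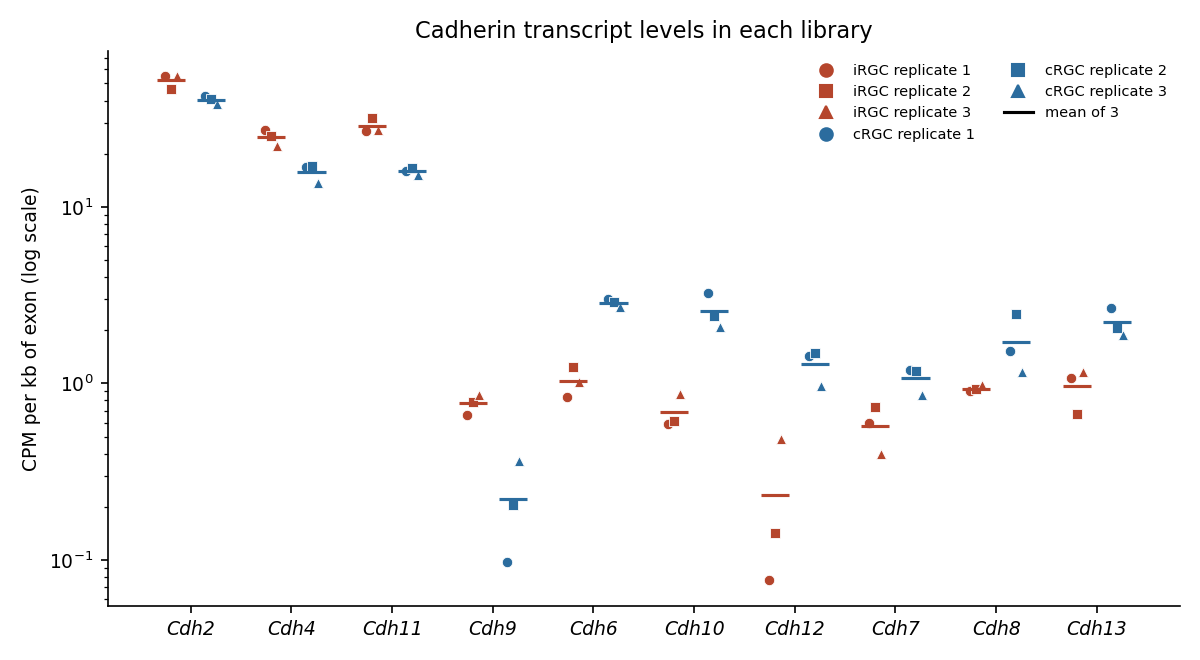
Level of each cadherin in each library, in CPM per kilobase of exon on a log axis, with iRGCs in red, cRGCs in blue, symbols for the replicates and a line at the mean of 3. Cdh2, Cdh4 and Cdh11 lie at 13.6 to 55.1 CPM per kb, all others at or below 3.23, and no member's populations overlap.

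Levels of different genes were compared per kilobase of annotated exon. In iRGCs the order began with Cdh2 at 52.2 ± 4.88 CPM per kb (mean ± SD, n = 3), Cdh11 at 28.7 ± 2.84 and Cdh4 at 24.8 ± 2.63, and the libraries of Cdh11 and Cdh4 overlapped. A wide gap separated these from Cdh6 at 1.03 ± 0.200, Cdh13 at 0.968 ± 0.261, Cdh8 at 0.935 ± 0.0362, Cdh9 at 0.771 ± 0.101, Cdh10 at 0.692 ± 0.157, Cdh7 at 0.577 ± 0.172 and Cdh12 at 0.235 ± 0.219 CPM per kb. Among these 7, each overlapped its neighbour in the order except Cdh8, whose iRGC libraries all lay above those of Cdh9. In cRGCs the same 3 genes led, with Cdh2 at 40.5 ± 2.26, Cdh11 at 16.0 ± 0.747 and Cdh4 at 15.8 ± 1.89 CPM per kb, the latter 2 overlapping. Then came Cdh6 at 2.87 ± 0.159, Cdh10 at 2.57 ± 0.593, Cdh13 at 2.21 ± 0.412, Cdh8 at 1.72 ± 0.682, Cdh12 at 1.29 ± 0.282, Cdh7 at 1.07 ± 0.187 and Cdh9 at 0.222 ± 0.134 CPM per kb. Neighbours from Cdh6 down to Cdh7 overlapped, and Cdh7 lay above Cdh9 in all cRGC libraries. Cdh9 was thus the last of the 10 in cRGCs and the seventh in iRGCs, and Cdh12 the last in iRGCs and the eighth in cRGCs.

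Cdh2 (ENSMUSG00000024304), or N-cadherin, the main cadherin of neural tissue, was at 444, 376 and 444 CPM in iRGC replicates 1 to 3 and at 344, 329 and 308 CPM in cRGCs. The lowest iRGC library was above the highest cRGC library by a small margin. The difference was 1.29-fold (log2 fold change 0.37, SE 0.11, adjusted p = 0.0251 by edgeR). Cdh4 (ENSMUSG00000000305, chr2:179442431-179899373), or R-cadherin, named for the retina, was at 197, 182 and 160 CPM in iRGCs and 122, 123 and 98.7 CPM in cRGCs. It was higher by 1.57-fold (log2 fold change 0.65, SE 0.13, adjusted p = 0.00388). The 2 type I members rose together, and their share of the summed level of the 10 members was 72.3%, 65.9% and 70.0% in iRGCs and 67.1%, 66.3% and 67.2% in cRGCs. These shares overlapped, with a mean difference of 2.53 percentage points (exact permutation test, two-sided, p = 0.4, where 3 against 3 cannot go below 0.1). The difference was 1.11 points without Sert replicate 1, 4.27 without Sert replicate 2 and 1.35 when Cdh13 was left out of the sum.

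Cdh11 (ENSMUSG00000031673, chr8:102632095-102785642), or OB-cadherin, a type II member known from bone and mesenchyme, was at 239, 284 and 243 CPM in iRGCs and at 143, 149 and 135 CPM in cRGCs. All iRGC libraries stood well above all cRGC libraries, and the difference was 1.80-fold (log2 fold change 0.84, SE 0.11, adjusted p = 4.77e-04). The highest library was iRGC replicate 2, in which the endothelial and mesenchymal lists were also highest. Over all refits, that without iRGC replicates 1 and 2 included, its log2 fold change was between 0.76 and 0.89. Together, Cdh2, Cdh4 and Cdh11 made up 95.8%, 95.3% and 94.8% of the summed level of the 10 members in iRGCs and 85.2%, 85.4% and 87.0% in cRGCs. The summed level itself was 114, 109 and 110.1 CPM per kb in iRGCs and 88.6, 87.2 and 77.0 CPM per kb in cRGCs.

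Cdh9 (ENSMUSG00000025370, chr15:16728756-16857094), a type II cadherin known from bipolar cells and synapse formation, was the sole scarce member that was higher in iRGCs. It had 73, 90 and 97 reads in the iRGC libraries and 9, 21 and 40 in the cRGC libraries, or 2.35, 2.78 and 3.06 CPM against 0.346, 0.725 and 1.29 CPM. The iRGC libraries were alike and the cRGC libraries spread widely, with replicate 3 the highest. The difference of 3.45-fold (log2 fold change 1.78, SE 0.72, adjusted p = 0.0814 by edgeR) was near the threshold. The call was lost without Sert replicate 2 (adjusted p = 0.163), without Sert replicate 3 (0.188), without Brn3b replicate 1 (0.181), without Brn3b replicate 2 (0.188), without Sert replicates 1 and 2 together (0.168) and with no filter on low counts (0.178).

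Of the members that were lower in iRGCs, Cdh6 and Cdh10 had the highest mean levels per kilobase in cRGCs, though not in iRGCs, where Cdh13 and Cdh8 were above Cdh10. Cdh6 (ENSMUSG00000039385, chr15:13028701-13173675), or K-cadherin, known to mark subsets of RGCs and their targets, was at 7.53, 11.1 and 9.21 CPM in iRGCs and at 27.2, 26.1 and 24.4 CPM in cRGCs. The cRGC libraries lay close together and each was more than the highest iRGC library, a 2.79-fold difference (log2 fold change -1.48, SE 0.20, adjusted p = 6.24e-04). Cdh10 (ENSMUSG00000022321, chr15:18818947-19014236), a type II cadherin of the brain, was at 5.92, 6.18 and 8.77 CPM in iRGCs and at 32.5, 24.1 and 20.98 CPM in cRGCs, and differed by 3.71-fold (log2 fold change -1.89, SE 0.25, adjusted p = 5.46e-04). Both kept their call in all alternatives run.

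Cdh12 (ENSMUSG00000040452, chr15:20449265-21589533), a brain cadherin of type II, had the largest fold of the 10 when all libraries were kept. It had 15, 29 and 97 reads in iRGCs and 233, 271 and 189 in cRGCs, or 0.482, 0.896 and 3.06 CPM against 8.96, 9.35 and 6.10 CPM. The iRGC libraries were uneven: replicate 3, the richest of them in RGC markers, was the highest, and replicate 1, the poorest, was the lowest. The iRGC libraries of Cdh8, Cdh9 and Cdh10 also rose from replicate 1 to replicate 3, and those of the other members did not. The part of the RGC content in these orders was not tested. The fitted difference of Cdh12 was 5.49-fold (log2 fold change -2.46, SE 0.66, adjusted p = 0.0161 by edgeR). It was 11.8-fold without Sert replicate 3 and 2.63-fold without Sert replicates 1 and 2. In this last fit Cdh9 (3.89-fold), Cdh10 (2.92-fold), Cdh6 (2.78-fold) and Cdh7 (2.68-fold) differed by more.

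Cdh13 (ENSMUSG00000031841, chr8:118283733-119324921), the GPI-anchored T-cadherin, known in axon guidance and as a receptor for adiponectin on vessels, was at 12.1, 7.54 and 13.0 CPM in iRGCs and at 30.1, 23.3 and 21.2 CPM in cRGCs. The lowest library was iRGC replicate 2, where the endothelial list was highest. The gene was lower in iRGCs by 2.28-fold (log2 fold change -1.19, SE 0.25, adjusted p = 0.00535). Cdh7 (ENSMUSG00000026312, chr1:109982431-110140157), a type II cadherin of the nervous system, was at 5.98, 7.42 and 3.97 CPM in iRGCs and at 11.9, 11.7 and 8.58 CPM in cRGCs. Here the highest iRGC and the lowest cRGC library were near each other, and the difference was 1.85-fold (log2 fold change -0.89, SE 0.31, adjusted p = 0.0504). The call was lost without Sert replicate 3 (adjusted p = 0.116), without Brn3b replicate 1 (0.155) and without Brn3b replicate 2 (0.170). Cdh8 (ENSMUSG00000036510, chr8:99024471-99416471), a type II cadherin known to guide bipolar cell terminals, was at 6.98, 7.20 and 7.54 CPM in iRGCs and at 11.8, 19.2 and 8.97 CPM in cRGCs. The iRGC libraries were nearly equal and the cRGC libraries were not, with replicate 2 far above the others. The difference was 1.84-fold (log2 fold change -0.88, SE 0.31, adjusted p = 0.0489). Without Brn3b replicate 2 it was 1.42-fold and not called (adjusted p = 0.276), and the call was also lost without Sert replicate 2 (0.109) and without Sert replicates 1 and 2 together (0.239).

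As a group, the 6 members that were lower summed to 4.07, 4.33 and 4.91 CPM per kb in iRGCs and 13.1, 12.5 and 9.66 CPM per kb in cRGCs. Their share of the 10 members was 3.58%, 3.98% and 4.46% in iRGCs and 14.7%, 14.3% and 12.5% in cRGCs. Since direction chose these 6 genes, the separation of their sums is a description.

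**Figure D3:**
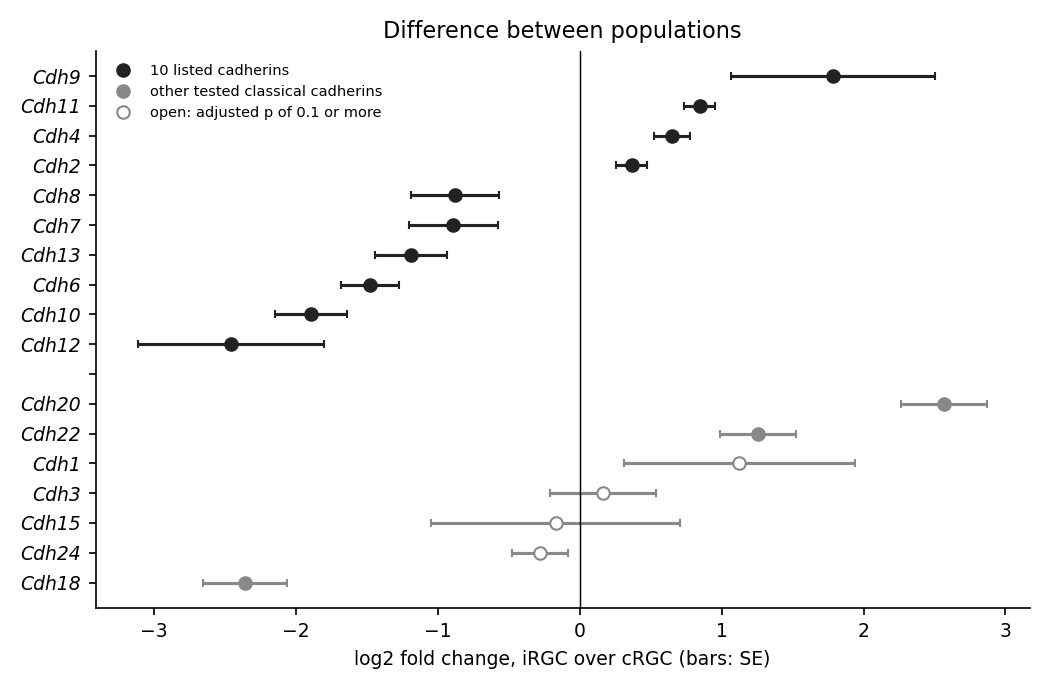
Log2 fold change of iRGCs over cRGCs with its SE (horizontal axis) for the 10 cadherins (black) and the other classical cadherins tested (grey), with open points where the adjusted p was 0.1 or more. The 10 members run from -2.46 for Cdh12 to 1.78 for Cdh9, and Cdh20 and Cdh18 lie at 2.57 and -2.36.

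The direction was also set beside the likeness of the sequences. Among the 45 pairs of members, 5 shared more than 65% of aligned residues in translated global alignments, a limit set after the values were seen. Of these 5 pairs, 3 differed in direction, beside 24 of all 45 pairs, a number that the 4 higher and 6 lower members fix, and nothing about sequence likeness is read from these counts. Cdh9 shared 71.8% with Cdh6 and 70.1% with Cdh10, and Cdh6 and Cdh10 shared 72.1%. The stretches printed above show this likeness: Cdh9 and Cdh6 carry the same bases from the first TGG codon onward. In iRGCs the level of Cdh10 over that of Cdh9 was 0.887, 0.782 and 1.01, and in cRGCs it was 33.1, 11.7 and 5.72. That of Cdh6 over Cdh9 was 1.26, 1.57 and 1.18 in iRGCs and 30.9, 14.1 and 7.40 in cRGCs. Both ratios were therefore near 1 in every iRGC library and well above it in every cRGC library. Nearness to 1 depends on the annotated exon lengths, 3539 bases for Cdh9, 9024 for Cdh6 and 10051 for Cdh10. In cRGCs the ratios also rest on only 9, 21 and 40 reads of Cdh9. By contrast, Cdh6 over Cdh10 overlapped, at 1.42, 2.00 and 1.17 against 0.933, 1.21 and 1.29. Cdh11 and Cdh8, sharing 67.4%, had a ratio of 29.8, 34.3 and 28.0 in iRGCs and 10.5, 6.74 and 13.1 in cRGCs. The type I pair Cdh2 and Cdh4, also sharing 67.4%, had overlapping ratios of 2.02, 1.86 and 2.51 in iRGCs and 2.54, 2.41 and 2.81 in cRGCs. A ratio within a library does not depend on the scaling between libraries, but the pairs were chosen with the directions known.

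**Figure D4:**
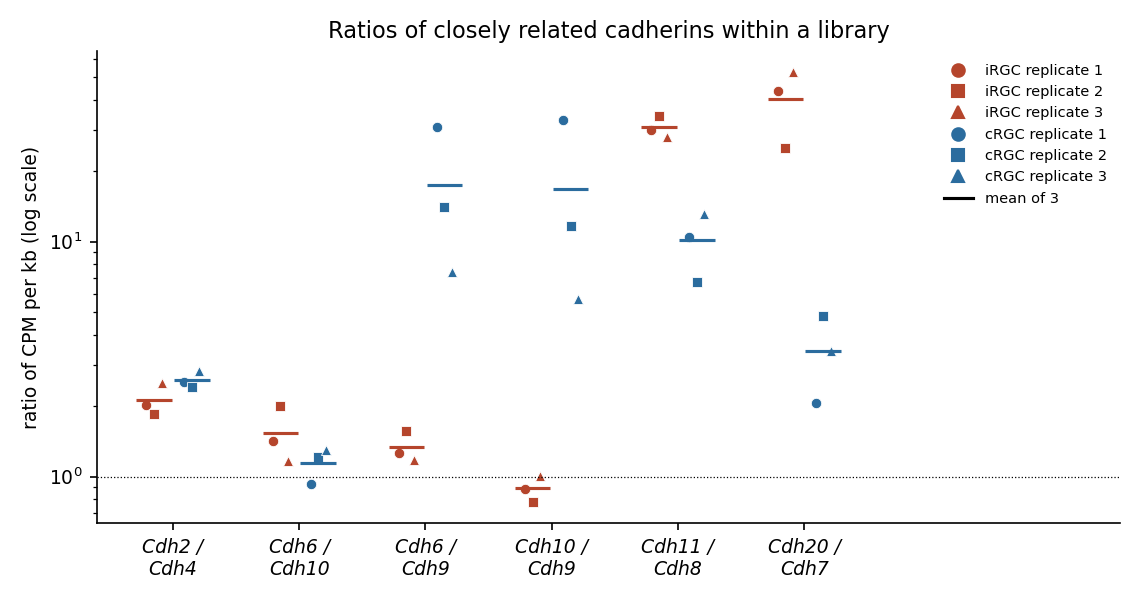
Ratio of the levels per kb of pairs of related cadherins within each library (log axis), with iRGCs in red, cRGCs in blue, symbols for the replicates and a line at the mean of 3. The dotted line marks equal levels. Cdh6 over Cdh9 and Cdh10 over Cdh9 are at 0.782 to 1.57 in iRGCs and at 5.72 to 33.1 in cRGCs.

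Some of these genes are neighbours in the genome. On chromosome 15, Cdh6, Cdh9, Cdh10, Cdh12 and Cdh18 follow each other with 0 annotated protein-coding genes of the count tables between them, across gaps of 3.56, 1.96, 1.44 and 0.959 Mb. Of this row, 4 were lower in iRGCs, and Cdh9, between Cdh6 and Cdh10, was higher. On chromosome 8, Cdh8 and Cdh11 are neighbours across 3.22 Mb with 0 such genes between, and one was lower and the other higher. Cdh13 lies further along that chromosome.

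Of the classical cadherins outside the 10, 7 were tested: 2 were higher, 1 was lower and 4 were not called, a share of calls near that of all genes tested (46.4%). Cdh20, a type II cadherin with the highest level per kilobase of this list in iRGCs but not in cRGCs, was at 104, 74.4 and 83.5 CPM in iRGCs and at 9.84, 22.5 and 11.8 CPM in cRGCs, a 5.94-fold difference (log2 fold change 2.57, SE 0.30, adjusted p = 3.40e-04). Its level per kilobase was 21.8 ± 3.85 CPM per kb in iRGCs, where its libraries overlapped those of Cdh4, and 3.67 ± 1.70 CPM per kb in cRGCs, where they overlapped those of Cdh6. Its relative Cdh7, on the same chromosome and sharing 63.0% of residues, was lower in iRGCs, and the level of Cdh20 over that of Cdh7 was 43.7, 25.1 and 52.6 in iRGCs and 2.07, 4.80 and 3.43 in cRGCs. Cdh18, the chromosomal neighbour of Cdh12, was at 2.89, 4.51 and 4.19 CPM in iRGCs and at 15.4, 18.3 and 25.8 CPM in cRGCs, and was lower by 5.13-fold (log2 fold change -2.36, SE 0.29, adjusted p = 4.24e-04). Cdh22, a type II cadherin of the brain, was higher by 2.39-fold (log2 fold change 1.26, SE 0.27, adjusted p = 0.00557). Cdh24 (log2 fold change -0.28, adjusted p = 0.300), Cdh3 or P-cadherin (0.17, 0.770), Cdh1 or E-cadherin (1.13, 0.315) and Cdh15 or M-cadherin (-0.17, 0.902) were not called. Cdh1 ranged from 0.835 to 8.17 CPM among the iRGC libraries, with replicate 1 far above the rest, and without that library its log2 fold change was -0.10. Cdh5 did not pass the filter, and Cdh19 had 0 reads in all libraries.

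In the machinery around the cadherins, 57 genes of 6 lists were tested, these classical cadherins included, and 23 were higher and 21 lower in iRGCs, beside 23.3% and 23.1% of all genes tested. Without Sert replicate 1 the counts were 22 and 19, beside 3521 and 3575 of all 16752 genes tested in that fit. Without Sert replicates 1 and 2 both were smaller, as were those of all genes tested. The catenins, which bind the tails, had 3 higher and 4 lower of 8 tested, with a median log2 fold change of -0.11. Ctnnb1 (β-catenin), by far the highest in level, was at 1183, 1249 and 1296 CPM in iRGCs and 855, 887 and 1003 CPM in cRGCs, a 1.36-fold difference (log2 fold change 0.44, SE 0.10, adjusted p = 0.00870). Of its exon bases, 15.1% are shared with other annotated genes. Jup (plakoglobin), its close relative, was lower by 3.32-fold (log2 fold change -1.73, SE 0.26, adjusted p = 9.89e-04). The same contrast was found for the α-catenins: Ctnna1, the widely expressed form, was at 290, 315 and 267 CPM in iRGCs and 113, 140 and 124 CPM in cRGCs (log2 fold change 1.21, SE 0.12, adjusted p = 2.18e-04), and Ctnna2, the neuronal form, was at 116, 129 and 182 CPM in iRGCs and 437, 375 and 393 CPM in cRGCs (log2 fold change -1.50, SE 0.17, adjusted p = 2.89e-04). Thus in each of these pairs one gene was higher and the other lower in iRGCs, with no overlap between the populations. Pkp4, a p120-like catenin, was higher (log2 fold change 0.68, adjusted p = 0.00535). Ctnnd1 (p120-catenin) was not called (0.03), and 61.2% of its exon bases are shared, so its count is uncertain.

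**Figure D5:**
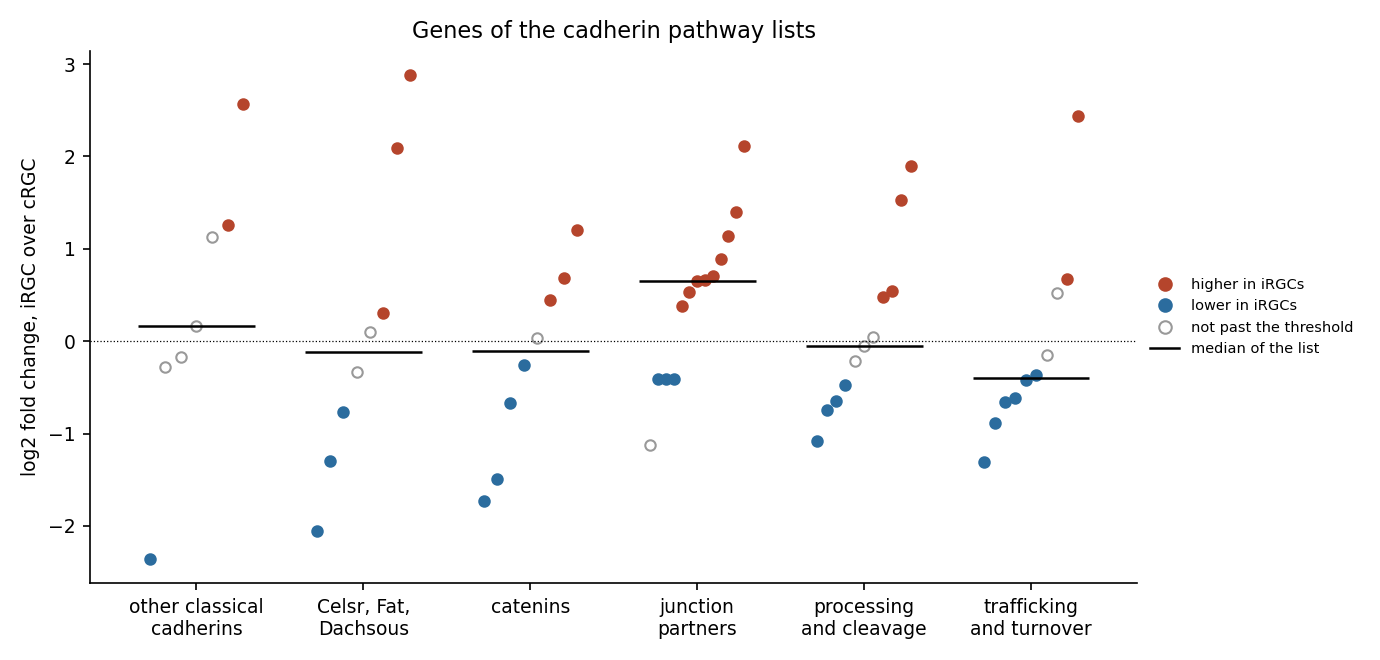
Log2 fold change of iRGCs over cRGCs for every tested gene of the 6 pathway lists, with red for higher, blue for lower, open points for genes not past the threshold and a line at the median of each list. Junction partners have the highest median, 0.65, and trafficking and turnover genes the lowest, -0.39.

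Partners of the adherens junction had 9 higher and 3 lower of 13 tested, beside 23.3% and 23.1% of all genes tested. Their median log2 fold change was 0.65. Without Sert replicate 1 the counts were 8 and 3. Without Sert replicates 1 and 2 fewer were called lower, as among all genes tested. Nectin3, an immunoglobulin-like adhesion molecule of these junctions, was at 228, 227 and 168 CPM in iRGCs and 36.2, 57.1 and 49.9 CPM in cRGCs (log2 fold change 2.12, SE 0.19, adjusted p = 2.05e-04), and the actin crosslinker Actn1 was also higher (1.40, adjusted p = 2.20e-04). Afdn, the scaffold that binds nectins and the highest of the list per kilobase in cRGCs, was lower (-0.41, adjusted p = 0.00675), as was Nectin2 (-0.41, adjusted p = 0.0267; not called without Sert replicates 1 and 2, 0.292). Progenitor markers moved in the same libraries, and their part in these differences was not tested.

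The large cadherins of planar polarity, Celsr, Fat and Dachsous, had 3 higher and 3 lower of 8 tested. Of all genes tested, 23.3% were higher and 23.1% lower. The median of the list was -0.12. Celsr1 was at 37.6, 34.6 and 28.3 CPM in iRGCs and 2.27, 6.73 and 4.58 CPM in cRGCs (log2 fold change 2.88, SE 0.36, adjusted p = 4.27e-04), and Fat1, a giant cadherin of polarity and growth control, rose by 4.26-fold (2.09, adjusted p = 2.54e-04). Celsr3, known for its part in axon tract formation and the highest of the list per kilobase in cRGCs, though below Fat1, Celsr2 and Dchs1 in iRGCs, was at 165, 189 and 197 CPM in iRGCs and 501, 391 and 460 CPM in cRGCs (-1.30, SE 0.13, adjusted p = 2.17e-04). Dchs2 was lower as well (-2.05, adjusted p = 0.0167), by 4.14-fold with all libraries and 9.41-fold without Sert replicates 1 and 2.

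Genes that process or cleave cadherins had 4 higher and 4 lower of 11 tested, beside 23.3% and 23.1% of all genes tested. Their median was -0.05. Without Sert replicate 1 the counts were again 4 and 4. Without Sert replicates 1 and 2 fewer were called in each direction, as among all genes tested. The proprotein convertases Pcsk5 (log2 fold change 1.52, adjusted p = 0.00960) and Pcsk6 (1.90, adjusted p = 0.0721) were higher. The call of Pcsk6 was lost without Sert replicate 2 (0.142), Sert replicate 3 (0.161) or Brn3b replicate 3 (0.134) and without Sert replicates 1 and 2 together (0.123). Adam10, the protease that sheds the cadherin ectodomain and the highest of the list per kilobase in both populations, was at 232, 278 and 289 CPM in iRGCs and 460.1, 462 and 763 CPM in cRGCs (-1.08, SE 0.20, adjusted p = 0.00287), and Psen2, a γ-secretase subunit, was lower too (-0.74, adjusted p = 0.0164; not called without Sert replicates 1 and 2, 0.125). Genes of cadherin trafficking and turnover had 2 higher and 6 lower of 10 tested, beside the same shares of all genes. Their median was -0.39. The receptor phosphatases went both ways: Ptpru was at 346, 300.0 and 258 CPM in iRGCs and 35.1, 81.7 and 49.9 CPM in cRGCs (2.44, SE 0.28, adjusted p = 3.05e-04), whereas Ptprm (-1.31, adjusted p = 9.57e-04) and Ptprf, the highest of the list per kilobase in iRGCs (-0.42, adjusted p = 0.00907), were lower. The endocytic adaptors also differed in direction, with Numb higher (0.68, adjusted p = 0.0143) and Numbl lower (-0.89, adjusted p = 8.02e-04).

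The genes with the most similar profile over the 6 libraries were sought for Cdh2 and Cdh12 among 10275 genes with a mean of at least 10 CPM, by Euclidean distance of centred log2 CPM. The nearest to Cdh2, the most abundant member, were Ddx51, an RNA helicase (distance 0.0706), Arih2, a ubiquitin ligase (0.0775), and Pias3, a SUMO ligase (0.0813). Those nearest to Cdh12, the member with the largest fold when all libraries were kept, were Arhgef4 (0.249), Ica1l (0.335) and Ablim3, an actin-binding protein (0.338). All 3 were lower in iRGCs by more than 2 on the log2 scale.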

How the data were processed

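RNA of sorted E16.5 cells was analysed in 6 libraries, 3 per population. The 13 ATAC-seq samples were not analysed here. The authors aligned reads to mm10 with HISAT2 2.1.0 and counted them on Ensembl genes of GRCm38 with HTSeq 0.11.1; the deposited values are raw counts per gene, without normalization. The strand setting of the counting is not given in the sources used here. Of 47069 genes, 46488 matched GENCODE M21 by identifier, which gave symbols, positions and exon lengths. The 5 tallies that name no gene (43.13% to 47.32% of all tallied) stayed out. Counts were tested with edgeR 4.0.16 (filterByExpr, TMM, quasi-likelihood test, two-sided, Benjamini-Hochberg over 15941 genes, adjusted p under 0.1). The common biological coefficient of variation was 36.3%. DESeq2 1.42.0 and limma 3.58.1 (voom) were alternatives, beside other scalings, filters, thresholds, a replicate block and left-out libraries. The fits were tested on simulated data. Nothing says that replicates came from separate litters, so p-values measure the spread between these samples. The members were taken by name, but the family and all lists were chosen with earlier results of these data known.

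Coding sequences were spliced from the GENCODE M21 principal transcripts on the GRCm38.p6 genome, translated, and aligned globally (BLOSUM62, 12 for the first and 1 for each further gap position, Biopython 1.88). A hydrophobic window was 19 residues with a mean Kyte-Doolittle value of at least 2. Named were all members, every tested other classical cadherin, in each other pathway list the gene highest per kb and the 2 with the largest change in each direction among those called, in each marker list the gene highest in CPM, and for 2 members the 3 most similar genes (log2 CPM with a pseudocount of 0.5). Marker genes at 0 in cRGCs, Slc6a4, Cdh5, Cdh19 and Ctnnd1 were named after their values were seen.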

Additional observations from a re-analysis of the deposited data

How the results depend on the processing

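Of 159 pairs of a member and an alternative, 139 kept direction and call, 20 lost the call and 0 changed direction. Cdh6, Cdh10, Cdh12 and Cdh13 kept their call in all alternatives, and Cdh9 lost it in 8, Cdh7 in 5, Cdh8 in 4 and Cdh2, Cdh4 and Cdh11 in 1 each, the last 3 when an absolute log2 fold change above 1 was also required. Under that requirement 1 member was higher and 4 lower, 11 and 7 genes of the pathway lists were higher and lower, and 1930 and 1758 of all genes, fewer by construction. Leaving out each library in turn gave 3 to 4 members higher and 4 to 6 lower, 22 to 24 pathway genes higher and 18 to 21 lower, and a type I share that differed by 1.11 to 4.27 percentage points. With at least 10 counts in every library Cdh9 was not tested. Libraries of the same replicate number showed no shared deviation from their group means (correlations -0.0121, -0.0237 and -0.055). Such values cannot tell whether samples were collected or processed in pairs. With the replicate block 3 members were higher and 6 lower, Cdh9 having an adjusted p of 0.121 by edgeR. Leaving out Sert replicates 1 and 2, chosen after seeing the data, changed the direction of no member but ended the calls of Cdh8 and Cdh9. Fewer of all genes tested were also called, and the lone Sert library is then assumed to vary like the cRGC libraries. The lowest read numbers of any member were 9 for Cdh9 and 15 for Cdh12, and whether depth limited a call was not tested.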
